A study of Mus musculus with 7 samples.

Results

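The Nr4a and Egr genes respond to antigen receptor signals, and their levels are described here in libraries of sorted lung regulatory T (Treg) cells. Such genes also respond to tissue digestion and sorting, and the libraries held markers of other lung cell types. The part of receptor signals in these levels was not tested. The 6 members, Nr4a1, Nr4a2, Nr4a3, Egr1, Egr2 and Egr3, were chosen by symbol among 19736 genes with a deposited value, and all 6 were among the 14582 genes that reached a normalised read count of 10 in at least 3 of the 7 libraries. No member passed the test for a difference between CCR6+ and CCR6- Treg cells, and no member's groups were fully apart when all 7 libraries were used. Over the 7 libraries, Nr4a3 and Egr3 differed 8.81-fold and 8.27-fold between their lowest and highest libraries, whereas the other 4 members differed 2.02-fold to 2.92-fold.

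NR4A proteins are orphan nuclear receptors that act as transcription factors and need no bound ligand, and EGR proteins are zinc finger transcription factors. Both families are immediate early genes: signals from the T cell receptor through calcium and ERK switch them on without new protein synthesis, and expression of Nr4a1 is widely used in mouse T cells as a readout of antigen receptor signal strength. In mouse Treg cells the NR4A factors help to maintain Foxp3 expression, while Egr2 and Egr3 restrain T cell activation.

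The study compared sorted lung Treg cells by surface CCR6, a chemokine receptor for CCL20 that marks many cells of the T helper 17 type. CCR6+Foxp3EGFP+ cells (3 libraries) were set against CCR6-Foxp3EGFP+ cells (4 libraries), which served as controls. All 7 libraries came from female mice of 5 to 7 weeks that carried the Il4raR576 allele of the interleukin 4 receptor alpha chain and a Foxp3EGFP reporter, and that were sensitized to and then challenged with ovalbumin (OVA). Cells were sorted from digests of whole lung. Cells without the R576 allele and cells from unchallenged mice are not analysed here. Nothing in the labels says that each library is a separate mouse. The p-values below are therefore set against library-to-library variation, part of which may be technical.

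Whole reads recovered from the deposited values numbered 11607780 to 35182288 in CCR6+ libraries and 31083571 to 47261246 in CCR6- libraries. Ccr6, the sort marker, had 7309, 2750 and 6406 normalised counts in the CCR6+ libraries, against 909, 851, 439 and 271 in the CCR6- libraries. All 10 Treg and T cell markers listed were above 0 in every library, with summed levels of 128651 to 327301 in CCR6+ and 254946 to 267217 in CCR6- libraries. The lowest of these values and the lowest depth both belonged to CCR6+ replicate 2. That library also had high summed levels of markers of several other lung cell types. The summed level of 10 epithelial markers ran over 3546 to 79028 in CCR6+ and 1834 to 9556 in CCR6- libraries, that of 10 endothelial and stromal markers over 6287 to 60623 in CCR6+ and 5540 to 8476 in CCR6- libraries, and that of 10 macrophage and monocyte markers over 10141 to 123244 in CCR6+ and 1418 to 34810 in CCR6- libraries. The highest of each was CCR6+ replicate 2, where none of the markers in these lists was at 0. The macrophage markers Adgre1, Siglecf and Mrc1 were at 0 in CCR6- replicate 4. Dendritic cell markers summed to 10370 to 86073 in CCR6+ and 3969 to 12902 in CCR6- libraries, also highest in CCR6+ replicate 2. CCR6+ replicate 1 also lay above every CCR6- library in summed epithelial (11588), macrophage and monocyte (53481) and dendritic cell markers (25243). In endothelial and stromal markers CCR6+ replicate 3 (9754) lay above every CCR6- library and CCR6+ replicate 1 (6287) did not. Leaving out CCR6+ replicate 2 thus does not free the CCR6+ group of these markers. Without CCR6+ replicate 2, both CCR6+ sums of the Treg and T cell markers (327301 and 292082) lay above every CCR6- sum. The differences of the members, and those of listed genes that it moves by more than 1.5 times, are therefore also given without CCR6+ replicate 2. In bulk RNA, fewer cells of a type and less RNA per cell cannot be told apart.

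Promoter windows were searched for elements bound by factors known to act downstream of calcium and ERK. The windows below are the 250 bases upstream of the start, from RefSeq on mouse GRCm38.p6, for 4 members. They are written 5′ to 3′ on the gene's strand in lower case, with motif matches in capitals. Egr2 has 5 starts in the RefSeq table, and the third is shown, chosen after its motifs were seen.
Nr4a1 (chr15:101266596-101266845, plus strand): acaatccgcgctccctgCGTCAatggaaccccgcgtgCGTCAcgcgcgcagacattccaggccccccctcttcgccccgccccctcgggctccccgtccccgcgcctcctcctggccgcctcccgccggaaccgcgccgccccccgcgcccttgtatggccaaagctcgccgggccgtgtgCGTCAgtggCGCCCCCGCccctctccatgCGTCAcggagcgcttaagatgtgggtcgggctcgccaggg
Nr4a2 (chr2:57124004-57124253, minus strand): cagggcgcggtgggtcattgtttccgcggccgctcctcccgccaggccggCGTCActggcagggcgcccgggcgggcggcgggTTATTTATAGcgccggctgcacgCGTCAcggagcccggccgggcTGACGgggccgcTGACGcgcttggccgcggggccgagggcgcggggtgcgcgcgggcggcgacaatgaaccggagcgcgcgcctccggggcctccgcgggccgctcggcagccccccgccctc
Nr4a3 (chr4:48045055-48045304, plus strand): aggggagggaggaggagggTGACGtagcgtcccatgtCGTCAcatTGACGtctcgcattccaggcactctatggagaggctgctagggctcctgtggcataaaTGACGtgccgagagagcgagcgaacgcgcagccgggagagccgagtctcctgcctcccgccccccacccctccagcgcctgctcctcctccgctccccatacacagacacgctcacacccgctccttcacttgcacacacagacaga
Egr2 (chr10:67537619-67537868, plus strand): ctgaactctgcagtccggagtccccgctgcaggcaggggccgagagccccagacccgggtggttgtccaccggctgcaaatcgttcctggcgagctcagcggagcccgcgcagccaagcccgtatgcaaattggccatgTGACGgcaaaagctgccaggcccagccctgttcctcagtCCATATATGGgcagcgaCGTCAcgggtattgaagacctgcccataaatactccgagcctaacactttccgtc

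Motifs were searched on both strands over 250 bases before to 50 bases after the start, and the share of all 32851 mouse promoter windows of 300 bases holding each motif is given for scale. The cyclic AMP response element (CRE) half-site TGACG, bound by CREB family factors, matched (as TGACG or, on the other strand, CGTCA) 4 times in each of Nr4a1, Nr4a2 and Nr4a3 and 2 times in the Egr2 window shown. At least 1 such match lay in 20.8% of all windows, at least 2 in 5.01% and at least 4 in 0.231%. None of the windows of the 4 members held the full CRE TGACGTCA, found in 1.79% of windows, or the NR4A monomer site AAAGGTCA, found in 1.51%. The EGR site GCGGGGGCG occurred 1 time in Nr4a1, at positions -60 to -52 from the start, against 2.91% of windows, and its variant GCGTGGGCG (0.612% of windows) occurred in none. A CArG box, the serum response factor site, lay at -72 to -63 in the Egr2 window shown (1.63% of windows), and a MEF2 site lay at -167 to -158 in Nr4a2 (3.19% of windows). None of these matches overlapped another. A match is a run of letters and not a measured binding site.

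**Figure D1:**
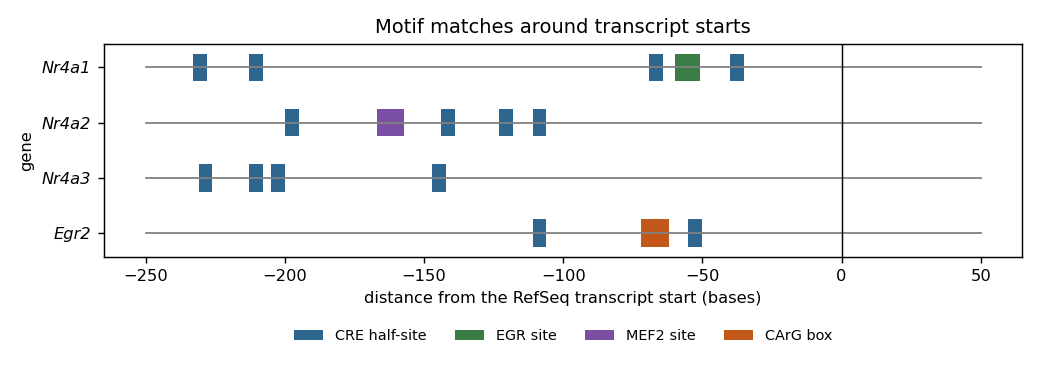
Positions of motif matches in the promoter windows, with distance from the transcription start in bases on the x axis and 1 row per gene. The CRE half-sites of the Nr4a genes lie between -233 and -36, and the CArG box stands between the CRE half-sites of the Egr2 window shown.

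In the mm10 assembly, annotated with GENCODE vM21, all members are protein-coding genes, and no exonic base of any of them is shared with another annotated gene. Nr4a1 lies at chr15:101254269-101274795 on the plus strand with 3509 exonic bases, Nr4a2 at chr2:57106830-57124003 on the minus strand with 4059, and Nr4a3 at chr4:48045153-48086447 on the plus strand with 5987. Egr1 lies at chr18:34859823-34864984 with 4484 exonic bases, Egr2 at chr10:67535475-67542188 with 3398, and Egr3 at chr14:70077203-70082614 with 4406, all on the plus strand. These lengths were used to compare levels between genes.

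Nr4a1 was the most abundant member per length. Its level per kilobase of exon averaged 4439 ± 1197 normalised counts in CCR6+ (SD, n = 3) and 5093 ± 1639 in CCR6- libraries (SD, n = 4). Egr1 came next, with 1422 ± 838 per kilobase in CCR6+ and 918 ± 165 in CCR6- libraries. Both steps of this order, Nr4a1 above Egr1 and Egr1 above Egr2, held in 7 of 7 libraries with ranges that did not touch. Egr2 (306 ± 77.4 per kilobase in CCR6+ and 289 ± 108 in CCR6-) and Nr4a2 (255 ± 29.4 in CCR6+ and 257 ± 73.1 in CCR6-) could not be ordered, since Egr2 was the higher in 3 of 7 libraries. Nr4a3 followed with 255 ± 134 per kilobase in CCR6+ and 166 ± 87.8 in CCR6- libraries, below Nr4a2 in 6 of 7 libraries. Egr3 was the scarcest, at 13.3 ± 3.64 per kilobase in CCR6+ and 9.23 ± 5.69 in CCR6- libraries, and its value rested on 32 to 61 reads in CCR6+ and 13 to 78 reads in CCR6- libraries.

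Among the NR4A receptors, Nr4a1, which encodes NUR77, had 19135, 10944 and 16653 normalised counts in CCR6+ replicates 1, 2 and 3, against 14905, 12905, 17702 and 25980 in CCR6- replicates 1, 2, 3 and 4. The lowest of the 7 values was CCR6+ replicate 2 and the highest was CCR6- replicate 4, with the other 5 interleaved. The means were 15577 ± 4200 in CCR6+ and 17873 ± 5752 in CCR6- libraries (SD), a log2 difference of -0.19 (SE 0.32, 95% interval -0.96 to 0.59) by limma on log2(value + 1). Its Benjamini-Hochberg adjusted p over all genes tested was 0.785. The estimate was 0.05 without CCR6+ replicate 2 and 0.01 without CCR6- replicate 4.

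Nr4a2, which encodes NURR1, had 1009, 933 and 1166 normalised counts in the CCR6+ libraries, against 1020, 1018, 1432 and 709 in the CCR6- libraries. Its range over the 7 libraries, 2.02-fold, was the smallest of the 6 members, its coefficient of variation was 11.5% in CCR6+ and 28.4% in CCR6- libraries, and the CCR6+ values lay inside the CCR6- range. Its log2 difference was 0.03 (SE 0.26, 95% interval -0.61 to 0.66), with an adjusted p of 0.967 by limma. Leaving out CCR6- replicate 4 turned the sign, to -0.15.

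Nr4a3, which encodes NOR1, had 2278, 682 and 1627 normalised counts in the CCR6+ libraries, against 1384, 968, 1361 and 259 in the CCR6- libraries. CCR6+ replicates 1 and 3 were above every CCR6- library, CCR6+ replicate 2 was below 3 of the 4, and CCR6- replicate 4 was the lowest of all. The means were 1529 ± 802 in CCR6+ and 993 ± 525 in CCR6- libraries, and the log2 difference was 0.72 (SE 0.73, 95% interval -1.04 to 2.48, adjusted p = 0.648 by limma). Without CCR6+ replicate 2 the estimate was 1.21 (SE 0.75, 95% interval -0.66 to 3.09, adjusted p = 0.773 by limma), and the remaining groups no longer overlapped. Without CCR6- replicate 4 it was 0.16 (SE 0.50), and without both libraries 0.66 (SE 0.26, 95% interval -0.05 to 1.36, adjusted p = 0.650 by limma). A single library on either side thus moved this estimate by more than 1.5 times.

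**Figure D2:**
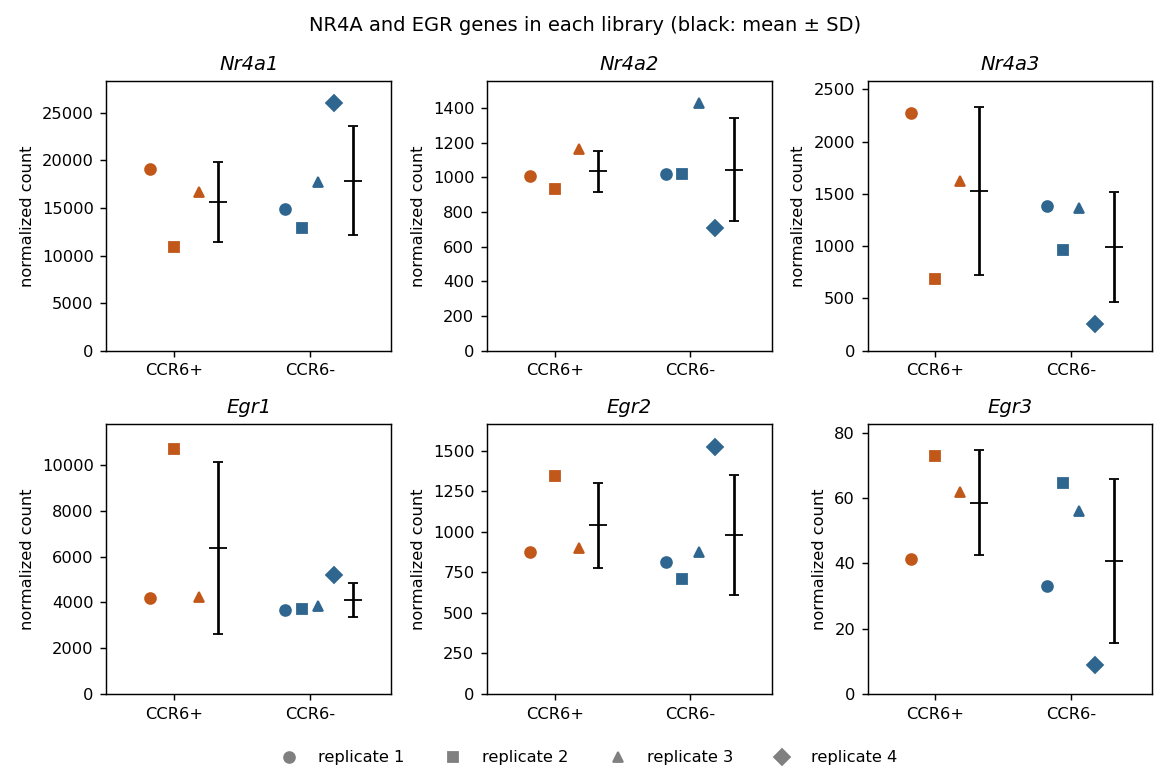
Normalised read counts of the 6 members in each of the 7 libraries on linear axes from 0, with CCR6+ libraries left of CCR6- libraries, 1 point per library and black bars for mean ± SD. CCR6+ replicate 2 is highest for Egr1 at 10716, and CCR6- replicate 4 is lowest for Nr4a3 at 259 and Egr3 at 8.80.

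Among the EGR factors, Egr1, a direct target of serum response factor downstream of ERK, had 4191, 10716 and 4226 normalised counts in the CCR6+ libraries, against 3670, 3723, 3857 and 5217 in the CCR6- libraries. CCR6+ replicate 2 was 2.55 times the mean of the other CCR6+ libraries, and those lay above CCR6- replicates 1, 2 and 3 and below CCR6- replicate 4. The means were 6378 ± 3757 in CCR6+ and 4117 ± 738 in CCR6- libraries, with a log2 difference of 0.50 (SE 0.38, 95% interval -0.43 to 1.42, adjusted p = 0.582 by limma). Without CCR6+ replicate 2, the library with the highest summed levels of epithelial, stromal and macrophage markers, the estimate was 0.05 (SE 0.21, 95% interval -0.48 to 0.57). The part of those cells in the Egr1 value was not tested. Without CCR6- replicate 4 the estimate was 0.62 (SE 0.42) and the groups no longer overlapped; without both libraries it was 0.17 (SE 0.13), again with no overlap.

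Egr2, a zinc finger factor required for T cell anergy programs in mice, had 875, 1342 and 899 normalised counts in the CCR6+ libraries, against 814, 708, 877 and 1523 in the CCR6- libraries. CCR6- replicate 4 was the highest and CCR6+ replicate 2 the next, and the other 5 libraries lay between 708 and 899. Its log2 difference was 0.12 (SE 0.32, 95% interval -0.66 to 0.90, adjusted p = 0.865 by limma). It was -0.08 without CCR6+ replicate 2 and 0.35 (SE 0.23) without CCR6- replicate 4.

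Egr3, which acts with Egr2 in restraining T cells, had 41.2, 72.8 and 61.9 normalised counts in the CCR6+ libraries, against 33.1, 64.6, 56.1 and 8.80 in the CCR6- libraries. CCR6- replicate 4 stood below the others; its 13 reads give a 95% Poisson interval of 4.68 to 15.0 normalised counts, which covers counting error only. The remaining 6 libraries were interleaved. The log2 difference was 0.80 (SE 0.69, 95% interval -0.88 to 2.48, adjusted p = 0.611 by limma), 0.62 without CCR6+ replicate 2 and 0.21 (SE 0.35) without CCR6- replicate 4. Egr4, the EGR gene outside the set, had 43.8, 56.9 and 0 normalised counts in the CCR6+ libraries, against 44.5, 96.9, 37.7 and 47.4 in the CCR6- libraries. The 0 reads in CCR6+ replicate 3 have an upper 95% Poisson limit of 3.69 reads, for counting error only, whereas the other 6 libraries had 25 to 117 reads and overlapped between the groups (adjusted p = 0.573 by limma).

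**Figure D3:**
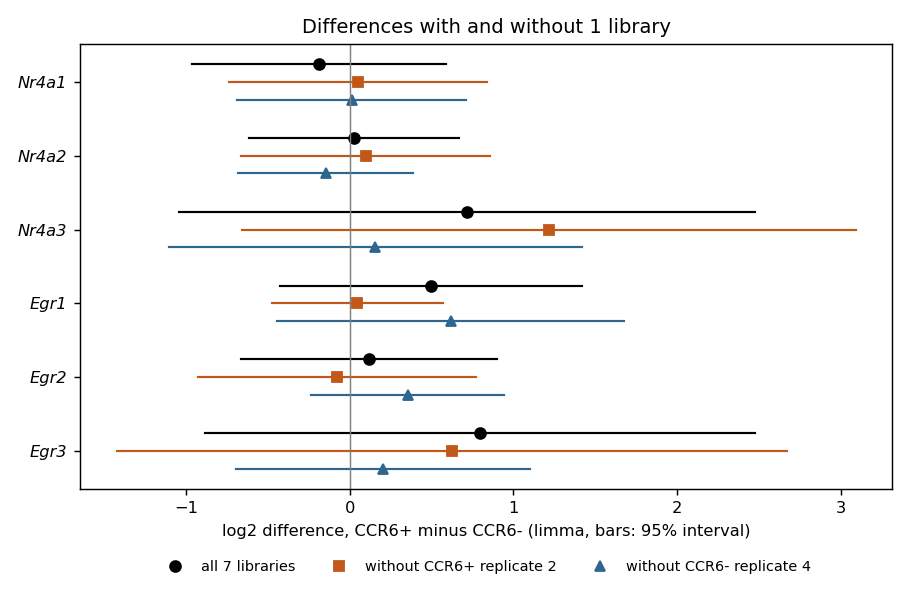
Log2 differences of the 6 members, CCR6+ minus CCR6-, with 95% intervals from limma, for all 7 libraries, without CCR6+ replicate 2 and without CCR6- replicate 4. Every interval includes 0, and the Nr4a3 estimate runs between 0.16 and 1.21.

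Calls over the whole table give the scale for the members. By limma at an adjusted p below 0.05, 0 of 6 members were called, as were 0 of 14582 genes (0%); at an unadjusted p below 0.05, 0 of 6 members and 1540 genes (10.6%) passed. With edgeR's quasi-likelihood test on the whole reads 0 members and 0.0137% of genes were called, and with DESeq2 0 members and 4.55% of genes. The groups were fully apart for 0 of 6 members and for 13.5% of all genes. Without CCR6+ replicate 2 they were apart for 1 member, Nr4a3, higher in CCR6+ cells, beside 10.9% of genes apart in that direction. Without CCR6- replicate 4 they were apart for 1 member, Egr1, higher in CCR6+ cells, beside 9.26% of genes. Without both libraries Nr4a3 and Egr1 were both apart, beside 13.8% of genes. The median log2 difference over the members was 0.31, beside 0.10 over all genes, and 0.07 without CCR6+ replicate 2, beside 0.0012 over all genes.

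The members did not move together across libraries. Egr1 and Egr2 lay on the same side of their own mean log2 level in 7 of 7 libraries, and their centred profiles differed by a root mean square of 0.34 log2 units. Nr4a3 lay on the same side as Egr1 in 1 of 7 libraries and as Egr2 in 1 of 7, with a root mean square difference of 1.27 in each case. CCR6- replicate 4 showed the split within the families most plainly: relative to the mean of the other CCR6- libraries, it had 1.71 times the Nr4a1, 1.90 times the Egr2 and 1.39 times the Egr1, but 0.613 times the Nr4a2, 0.209 times the Nr4a3 and 0.172 times the Egr3. CCR6+ replicate 2, relative to the mean of the other CCR6+ libraries, had 2.55 times the Egr1, 1.51 times the Egr2 and 1.41 times the Egr3, but 0.612 times the Nr4a1, 0.858 times the Nr4a2 and 0.350 times the Nr4a3. All 3 EGR members were thus on the high side and all 3 NR4A members on the low side in that library. Counting error alone gives Egr3 there (32 reads) a Poisson interval of 49.8 to 102.8, which covers CCR6+ replicate 3 (61.9). That of Nr4a2 (844.5 to 1027.4) covers CCR6+ replicate 1 (1009). The intervals of Nr4a1, Nr4a3, Egr1 and Egr2 cover neither of the other CCR6+ libraries. CCR6+ replicate 2 was also the highest library for 43.6% and the lowest for 22.8% of all genes. Whether the split is particular to these families was not tested. The comparisons of 1 library with its group have no replicate and no test.

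**Figure D4:**
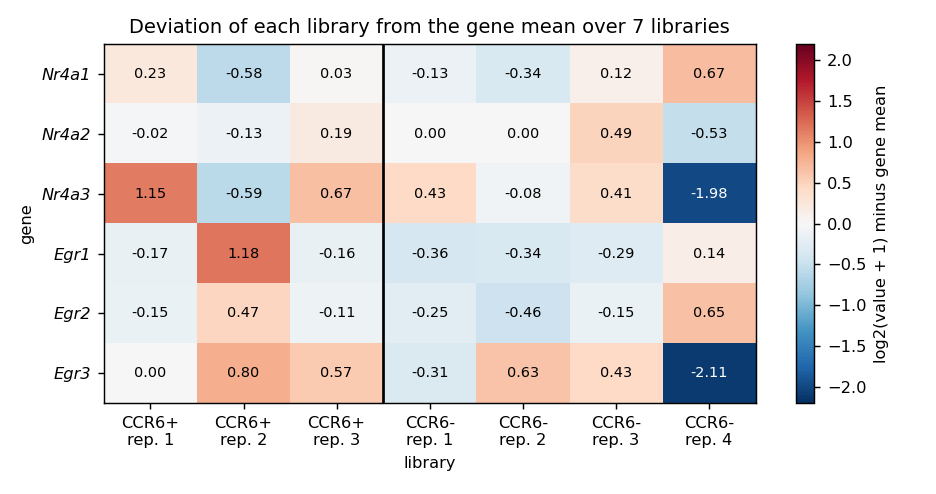
Deviation of each member from its own mean log2 level over the 7 libraries (rows are genes, columns are libraries, CCR6+ left of CCR6-, colour and printed value in log2 units). Egr1 reaches 1.18 in CCR6+ replicate 2, while Nr4a3 and Egr3 reach -1.98 and -2.11 in CCR6- replicate 4.

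Ratios between members within a library, taken per kilobase, cancel the scaling between libraries. Nr4a3 was 6.98%, 3.65% and 5.73% of Nr4a1 in the CCR6+ libraries, against 5.44%, 4.40%, 4.51% and 0.583% in the CCR6- libraries. Only CCR6- replicate 4 lay outside a range of 3.65% to 6.98%, and the groups overlapped. Egr1 was 17.1%, 76.6% and 19.9% of Nr4a1 in the CCR6+ libraries, against 19.3%, 22.6%, 17.1% and 15.7% in the CCR6- libraries. CCR6+ replicate 2 stood apart and the other 6 libraries were interleaved. Egr2 was 27.5%, 16.5% and 28.1% of Egr1 in the CCR6+ libraries, against 29.3%, 25.1%, 30.0% and 38.5% in the CCR6- libraries, again with overlap.

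Genes whose centred log2 profiles over the 7 libraries were most like a member's were ranked by root mean square difference among 11950 candidates. For Nr4a1 they were Ankrd12 (0.089) and Mppe1 (0.097). For Nr4a2 they were Itga4 (0.12), which encodes integrin alpha 4, Sp110 (0.12) and the ribosomal protein gene Rps29 (0.12). Those nearest to Egr1 were Gas2 (0.12), Tax1bp3 (0.13) and Rab3d (0.13), and those nearest to Egr2 were Tango2 (0.059) and Mmaa (0.081). The smallest differences were larger for Nr4a3 and Egr3, which also spread more about their own means (root mean square 0.96 and 0.93, beside 0.29 to 0.51 for the other members). They were those of Tada2b (0.31), Cnnm3 (0.33) and Cep170b (0.34) for Nr4a3, and Mpst (0.24), the cell cycle factor E2f3 (0.25) and the ribosomal protein gene Rps20 (0.32) for Egr3. With 7 libraries and so many candidates, these are descriptions of likeness without a test.

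Among 17 regulators and partners of the factors, 0 passed the adjusted limma test and 0 the unadjusted one, beside 0% and 10.6% of all genes. Of the 17, 8 had a positive and 9 a negative difference (median -0.02), beside 56.9% positive and a median of 0.10 over all genes. With CCR6+ replicate 2 left out, 12 of the 17 were positive (median 0.10), beside 50.1% of all genes (median 0.0012). Nab2, a corepressor that binds EGR proteins and is itself an EGR target, was the 1 gene of this list with groups apart, lower in CCR6+ cells, beside 5.53% of all genes apart in that direction. Nab2 had 1292, 687 and 1293 normalised counts in the CCR6+ libraries, against 1418, 1660, 1351 and 1760 in the CCR6- libraries. Its log2 difference was -0.55 (SE 0.28, adjusted p = 0.495 by limma), and -0.25 without CCR6+ replicate 2, with the groups still apart, beside 9.43% of genes apart in that direction. Rxra, the retinoid X receptor that pairs with Nr4a1 and Nr4a2 proteins, had 1063, 2122 and 1437 in the CCR6+ libraries, against 1098, 893, 877 and 349 in the CCR6- libraries, and the groups overlapped (log2 difference 1.00, SE 0.46, adjusted p = 0.484 by limma). Nfatc2, a calcium-driven factor upstream of both families, had a difference of 0.59 (SE 0.37, adjusted p = 0.546 by limma), with overlap. Without CCR6+ replicate 2 the differences of Rxra and Nfatc2 were 0.74 and 0.77. The groups of Nfatc2 were then apart, higher in CCR6+ cells, beside 10.9% of genes apart in that direction. Without CCR6- replicate 4 the difference of Rxra was 0.64.

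Of 24 other immediate early genes, 0 passed the adjusted limma test and 2 the unadjusted one, beside 10.6% of all genes. Of the 24, 14 were positive and 10 negative, with a median log2 difference of 0.13, beside 0.10 over all genes. With CCR6+ replicate 2 left out, 12 of 24 were positive (median -0.0019, beside 0.0012 over all genes). The groups were then apart for 5 higher and 1 lower, beside 10.9% and 9.43% of all genes. Without CCR6- replicate 4, 19 of 24 were positive (median 0.18), beside 56.1% of all genes (median 0.075). With all libraries the groups were apart for 2 genes, both higher in CCR6+ cells, beside 7.96% of all genes. Fosl2, an AP-1 subunit, had 2794, 1358 and 1506 normalised counts in the CCR6+ libraries, against 1279, 948, 895 and 914 in the CCR6- libraries (log2 difference 0.84, SE 0.30, adjusted p = 0.455 by limma). Atf3, a stress-induced factor of the CREB family, had 768, 3674 and 663 in the CCR6+ libraries, against 399, 647, 391 and 225 in the CCR6- libraries (log2 difference 1.66, SE 0.69, adjusted p = 0.471 by limma). CCR6+ replicate 2 was the highest library for Atf3, and the difference without it was 0.88. Ier3 had 518, 3696 and 436 in the CCR6+ libraries, against 234, 485, 105 and 28.4 in the CCR6- libraries, with overlap (log2 difference 2.78, SE 1.18, adjusted p = 0.473 by limma). The differences of Fosl2 and Ier3 were 1.04 and 1.80 without CCR6+ replicate 2. With all libraries DESeq2 called Atf3 among the 24 (adjusted p = 0.0387, beside 4.55% of genes called), but not without CCR6+ replicate 2 (adjusted p = 0.567). Fosl2 was called only in that second fit (adjusted p = 0.0271, beside 1.37% of genes; 0.0783 with all libraries).

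The spread of CCR6- replicate 4 seen in the members was also present in this list: it was the highest library for 10 of the 24 genes (41.7%) and the lowest for 8 (33.3%), beside 21.6% and 24.2% of all genes. It was not alone in this: CCR6+ replicate 1 was the highest for 8 (33.3%) and the lowest for 2 (8.33%), beside 8.58% and 19.3% of all genes. Jun, Junb and Dusp1, picked after their values were seen, were among the 10 highest in CCR6- replicate 4. Jun had 13127, 18955 and 12022 normalised counts in the CCR6+ libraries, against 15999, 10852, 15861 and 41878 in the CCR6- libraries. For Junb they were 90888, 52366 and 78849 in the CCR6+ libraries, against 64383, 64704, 80257 and 153560 in the CCR6- libraries. Dusp1 had 25355, 28363 and 24909 in the CCR6+ libraries, against 23285, 16864, 25554 and 62286 in the CCR6- libraries. In all 3 genes, as in Nr4a1, CCR6- replicate 4 was the highest of the 7 libraries. Atf3 (225) and Ier3 (28.4) were among the 8 genes for which it was the lowest, as it was for Nr4a2, Nr4a3 and Egr3.

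Among 17 reported EGR targets and brakes on antigen receptor signals, 0 passed the adjusted limma test and 2 the unadjusted one, beside 0% and 10.6% of all genes. Of the 17 differences, 7 were positive and 10 negative (median -0.08), beside 56.9% positive and a median of 0.10 over all genes. No gene's groups were apart, beside 13.5% of all genes. With CCR6+ replicate 2 left out, 11 of 17 were positive (median 0.07), beside 50.1% of all genes (median 0.0012). The groups were then apart for 2 higher and 1 lower, beside 10.9% and 9.43% of all genes. The diacylglycerol kinases, which dampen signals below the receptor, were both in the lower direction: Dgka at -0.48 (SE 0.24, adjusted p = 0.491 by limma) and Dgkz at -0.48 (SE 0.19, adjusted p = 0.471 by limma). With CCR6+ replicate 2 left out they were -0.28 and -0.35. Without CCR6- replicate 4 the groups of Dgka were apart, lower in CCR6+ cells. With all 7 libraries, 5.53% of genes were apart in that direction, and 9.43% without CCR6+ replicate 2. The share without CCR6- replicate 4 is not given here, so the result for Dgka cannot be set beside it. Dgkz had 11618, 9386 and 12809 normalised counts in the CCR6+ libraries, against 15898, 12795, 16791 and 17289 in the CCR6- libraries, and the groups touched by 1 pair of libraries. Cdkn1a, which encodes the cell cycle inhibitor p21, had 3903, 4706 and 1933 in the CCR6+ libraries, against 1663, 2082, 1125 and 1630 in the CCR6- libraries (log2 difference 1.05, SE 0.37, adjusted p = 0.449 by limma). DESeq2 gave Cdkn1a an adjusted p of 0.0374 with all libraries, beside 4.55% of genes called. Without CCR6+ replicate 2 the DESeq2 value was 0.274.

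Among 14 NR4A-linked and antigen receptor dependent Treg genes, 0 passed the adjusted limma test and 2 the unadjusted one, beside 0% and 10.6% of all genes. Of the 14 differences, 7 were positive and 7 negative (median -0.0014, beside 0.10 over all genes). Without CCR6+ replicate 2 all 14 were positive, with a median log2 difference of 0.38, beside 50.1% of all genes and a median of 0.0012. The groups were then apart for 6 of 14, beside 10.9% of genes. The summed Treg and T cell markers, which include 5 of these genes, were then also higher in both CCR6+ libraries (327301 and 292082) than in the CCR6- libraries (254946 to 267217), and their part in the shift was not tested. With all libraries the groups were apart for 3, each higher in CCR6+ cells, beside 7.96% of genes. Tox2, a nuclear factor that NR4A proteins act with in exhausted mouse T cells, had 1987, 3453 and 2291 normalised counts in the CCR6+ libraries, against 648, 886, 1024 and 831 in the CCR6- libraries (log2 difference 1.58, SE 0.26, adjusted p = 0.302 by limma). Its lowest CCR6+ library was well above its highest CCR6- library. The inhibitory receptor gene Havcr2 had 675, 1335 and 842 in the CCR6+ libraries, against 278, 177, 342 and 410 in the CCR6- libraries (log2 difference 1.66, SE 0.37, adjusted p = 0.388 by limma). Pdcd1, which encodes PD-1, had 3773, 4135 and 4247 in the CCR6+ libraries, against 3414, 2972, 3522 and 2343 in the CCR6- libraries (log2 difference 0.42, SE 0.20, adjusted p = 0.486 by limma). The differences without CCR6+ replicate 2 were 1.35 for Tox2, 1.38 for Havcr2 and 0.40 for Pdcd1. DESeq2 called Tox2 (adjusted p = 3.28e-06) and Havcr2 (adjusted p = 0.00506), beside 4.55% of genes. It also called both without CCR6+ replicate 2 (adjusted p = 1.97e-05 and 0.04), beside 1.37% of genes, and edgeR called neither.

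**Figure D5:**
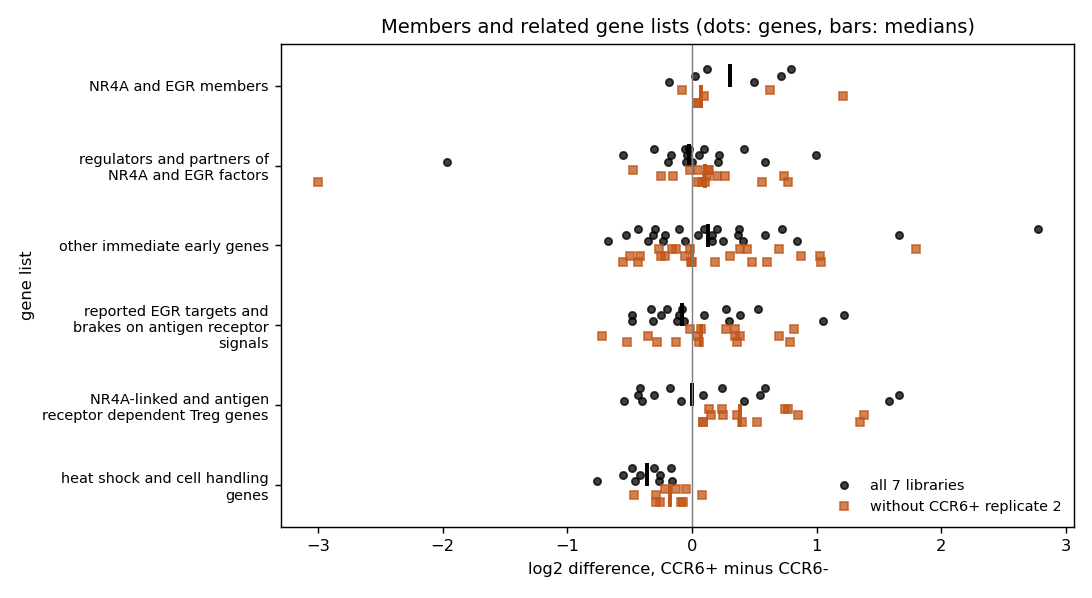
Log2 differences, CCR6+ minus CCR6-, of the genes of each list (1 point per gene, lines at medians), with all 7 libraries and without CCR6+ replicate 2. The heat shock list lies below 0 with all libraries, and the list of antigen receptor dependent Treg genes lies above 0 without CCR6+ replicate 2.

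Immediate early genes also respond to tissue digestion and sorting, so heat shock genes were read beside them. All 10 heat shock and cell handling genes had negative differences, with a median of -0.36, where 56.9% of all genes were positive with a median of 0.10. Without CCR6+ replicate 2, 9 of 10 were negative, with a median of -0.17, where 50.1% of all genes were positive with a median of 0.0012. None of the 10 passed the limma test at an adjusted or unadjusted p below 0.05, and neither edgeR nor DESeq2 called any. Dnajb1, a cochaperone, had 7833, 5641 and 5871 normalised counts in the CCR6+ libraries, against 8375, 9105, 7197 and 13893 in the CCR6- libraries (log2 difference -0.55, SE 0.27, adjusted p = 0.494 by limma). Hspa8 and Hspd1, both chaperone genes, differed by -0.46 (SE 0.32) and -0.30 (SE 0.21), with overlapping groups. With CCR6+ replicate 2 left out the differences were -0.46 for Dnajb1, -0.29 for Hspa8 and -0.22 for Hspd1, and without CCR6- replicate 4 they were -0.36 for Dnajb1 and -0.28 for Hspa8. CCR6- replicate 4, the library with the highest Nr4a1 and Egr2, was the highest for 3 of the 10 genes and the lowest for 1, Hsp90aa1. CCR6- replicate 2, the library with the lowest Egr2, was the highest for 4 of the 10. Over all genes, CCR6- replicate 4 was the highest for 21.6% and CCR6- replicate 2 for 11.6%. CCR6+ replicate 2 was the lowest for 6 of the 10 and CCR6+ replicate 3 for 3, beside 22.8% and 7.52% of all genes. The part of handling in the levels of the members was not tested.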

How the data were processed

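RNA from sorted cells was made into cDNA with a SMART-Seq kit for low input, per the labels' protocols. The deposited values are a normalised signal per gene: whole read counts divided by 1 size factor per library. The authors used STAR 2.5.1b, HTSeq 0.6.1p1, DESeq2 1.6.3 and mm10, per the submitters' processing notes. Annotation and strand setting are not given in the sources used. Dividing by each library's step gave whole reads for 100% of values, within 0.001.

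The filter kept genes that reached 10 in 3 or more libraries, and these were compared on log2(value + 1) with limma 3.58.1 (R 4.3.3) across all 7 libraries without covariates, CCR6+ minus CCR6-, at a Benjamini-Hochberg adjusted p of 0.05 over 14582 genes. The added 1 shrinks log2 differences of low genes. Even so, the Egr3 difference was larger on this scale (0.80) than with DESeq2 (0.52) or edgeR (0.44). That of Egr4 was also larger in size, at -1.97 against -0.77 with DESeq2 and -0.86 with edgeR. Alternatives were edgeR 4.0.16 and DESeq2 1.42.0, both run on whole reads, another pseudocount, filter or scaling, array weights, a robust trend, a replicate block, and leaving out each library. The script was tested on simulated data. No pair of libraries of 1 group agreed within sampling noise (chi-square of 29.1 to 264 per gene).

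The members and lists were chosen with earlier results of these data known. Named genes were the members, Egr4, the 3 genes with the most similar profile to each member (mean of at least 50), and in each list the genes called and the 3 with the smallest limma p. Some genes that this rule names are not reported here. Group labels and replicate numbers came from the sample titles. Promoter windows came from RefSeq (GRCm38.p6) and exon lengths from GENCODE vM21. No protein sequence was used here.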

Additional observations from a re-analysis of the deposited data

Results flagged for a closer look

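In 8 of 51 sets of 4 CCR6- values (15.7%), 1 library's gap to its nearest neighbour was large for the range of the group by Dixon's criterion. Chance gives about 5% for independent sets. Many of these sets were genes picked for profiles like a member's, so the shares cannot be compared. Of the members, only Egr1 met it: CCR6- replicate 4 had 5217 normalised counts (other CCR6- libraries 3670 to 3857). CCR6- replicate 4 was also the one apart for 4 genes with profiles like a member's. It had 3806 for Ankrd12 (others 2241 to 2498), 140.1 for Tada2b (others 478.9 to 497.5), 954.3 for Rab3d (others 712.6 to 728.3) and 2263 for Tango2 (others 1138 to 1310). The profiles of these genes were picked as like those of Nr4a1, Nr4a3, Egr1 and Egr2, so they are not independent of the members. Egr4 was apart in CCR6- replicate 2 at 96.95 (others 37.70 to 47.38) and Fosl2 in CCR6- replicate 1 at 1279 (others 894.7 to 947.9). Rps29, picked as like Nr4a2, was apart in CCR6- replicate 3 at 80.92 (others 39.26 to 46.34). The CCR6+ group, with 3 libraries, was not examined in this way.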

How the results depend on the processing

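Over 131 member values under other settings, 0 had an adjusted p below 0.05, and the smallest was 0.191, for Egr3 with array weights. Nr4a3 and Egr1 kept a positive sign under all 22 alternatives, with 0.16 to 1.21 and 0.05 to 0.72 when 1 library was left out. Not all of the 22 could turn a sign. The robust trend and the other filters leave each estimate as it was, and the replicate block repeats the fit without CCR6- replicate 4. The sign of the other members turned in 21 of the values. Nr4a1 (-0.19) was 0.031 with array weights, 0.017 with DESeq2 without CCR6+ replicate 2, 0.25 without both that library and CCR6- replicate 4, and 0.029 with quantile normalisation; with 1 library left out it was -0.35 to 0.050. Nr4a2 (0.03) was -0.018 with DESeq2, -0.084 with edgeR, -0.073 without both libraries, -0.071 with quantile normalisation and -0.055 with TMM scaling; with 1 left out it was -0.15 to 0.19. Egr2 (0.12) was -0.13 with DESeq2 without CCR6+ replicate 2, -0.012 with edgeR and -0.15 with edgeR without that library; with 1 left out it was -0.079 to 0.35. Egr3 (0.80) was -1.30 with quantile normalisation, which moved the median of all genes from 0.10 to -0.08; with 1 left out it was 0.21 to 1.12. The cause of these turns was not tested. Egr3 was not in the table filtered at a mean of 100. Leaving out both libraries was chosen after seeing the data.

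The replicate block gave 0.012 for Nr4a1, -0.15 for Nr4a2, 0.16 for Nr4a3, 0.62 for Egr1, 0.35 for Egr2 and 0.21 for Egr3, the values without CCR6- replicate 4, which has no partner, and 0 calls. Deviations of same-numbered libraries correlated at -0.128, -0.112 and 0.342, and those of differently numbered libraries at -0.757 to 0.690. With so wide a spread between differently numbered libraries, these values cannot decide whether same-numbered libraries are pairs.

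Against 0 genes called higher and 0 lower, array weights called 1458 and 1028, DESeq2 530 and 134, DESeq2 without CCR6+ replicate 2 104 and 78, the robust trend 8 and 2, and quantile normalisation 2 and 2. Genes higher numbered 2 with edgeR, with edgeR without CCR6+ replicate 2, with a mean of at least 100 and with a pseudocount of 8, and 1 with a pseudocount of 0.5 and with TMM, with 0 lower in each. Leaving out any 1 library gave 0 to 0 calls. The array weights did not reach their convergence tolerance and put 24.18 on CCR6+ replicate 3, against 0.208 on CCR6+ replicate 2. Of the genes named, they gave an adjusted p below 0.05 to Egr4 (0.0187), Dgka (0.0301), Tox2 (0.00977), Pdcd1 (0.0486) and Havcr2 (0.00997). Egr4 had 0 reads in CCR6+ replicate 3, the library with the weight of 24.18. Its difference was -5.40 with array weights, -1.97 in the main limma fit and -0.077 without that library. CCR6+ replicate 2 has the fewest reads, and counting error is widest for Egr3 and Egr4, with at most 117 reads in a library.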
